A study of Mus musculus with 6 samples.

Results

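Cyclins, cyclin-dependent kinases (CDKs), CDK inhibitors and the CDC25 phosphatases were compared between early and late cells of the Atoh1 lineage of the mouse hindbrain. Members were all genes whose symbol is Ccn followed by a letter, Cdk followed by digits alone, Cdkn followed by anything, or Cdc25a, Cdc25b or Cdc25c, and that a probe set names on its own. This gave 59 genes of the 18193 with such a probe set, read by 135 probe sets. They were divided by role into 26 genes of the cell cycle machinery and 33 with other roles, among them the kinases and cyclins of transcription. Genes without such a probe set, cyclin B1 among them, were not analysed here.

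All 6 samples were EGFP-positive cells sorted from the dissected r1/isthmus of Swiss Webster embryos at E14.5. The embryos carried Atoh1-CreER and the RCE reporter, in which EGFP stays on in a cell and its descendants once Cre has acted. The dam received tamoxifen by gavage (4 mg per 35 g) at E10.5 in one group and at E13.5 in the other, so the groups differ in the day of labelling and also in the time from labelling to collection, and these cannot be told apart. Each group had 3 samples, each on its own Affymetrix array. Precision is limited by this number. Separate litters, and pooling of embryos, are not mentioned in the labels. The p-values therefore reflect only how far these samples differ from each other, which may be technical in part. By sex-linked genes, given below, replicates 3 did not hold the same mix of embryos as the other arrays.

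Cyclins bind CDKs and switch on their kinase activity. D-type cyclins with Cdk4 or Cdk6 phosphorylate the retinoblastoma protein, which releases E2F factors and allows entry into S phase, and cyclins E and A with Cdk2 and then cyclins A and B with Cdk1 carry the cell through replication and mitosis. CDC25 phosphatases remove inhibitory phosphates from CDKs, and inhibitors of the Cip/Kip (Cdkn1) and INK4 (Cdkn2) families hold them off. Other members act elsewhere: Cdk7, Cdk8 and Cdk9 with their cyclins act on RNA polymerase II, and Cdk5 is a kinase of postmitotic neurons. The rhombic lip, where Atoh1 is expressed, gives rise to granule cell precursors that go on dividing and to neurons that leave the cycle early.

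Genes of the later cell cycle often carry a CHR element (cell cycle homology region) and CCAAT boxes, bound by NF-Y, close to the start of transcription, and genes of the G1 to S step carry E2F sites. Promoter windows of 250 bases before to 50 after the start, from RefSeq (GRCm38.p6), were held for 47 of the 59 members, as 52 windows, and for 32851 starts in all. The 12 members without a window were Ccna2, Ccnd1, Ccnd2, Ccne2, Ccnh, Ccny, Cdc25c, Cdk17, Cdk19, Cdk3, Cdk5 and Cdkn1c. Each window was searched on both strands for the word TTTGAA (a form of the CHR), for CCAAT, and for both TTTGGCGC and TTTCCCGC (forms of the E2F site). Matches of different words may overlap, though none do in the promoters shown, and a match is a description of the letters, not a site. The 250 bases before the start are shown for Cdk1, Ccnb2 and Ccnf, mitotic genes that were higher in E13.5-labelled cells and hold TTTGAA and CCAAT together, and for Cdk16, the one member with another role that does. Capitals mark TTTGAA with its reverse complement TTCAAA, and likewise CCAAT with ATTGG.
Cdk1, GRCm38.p6 chr10:69352913-69353162, minus strand: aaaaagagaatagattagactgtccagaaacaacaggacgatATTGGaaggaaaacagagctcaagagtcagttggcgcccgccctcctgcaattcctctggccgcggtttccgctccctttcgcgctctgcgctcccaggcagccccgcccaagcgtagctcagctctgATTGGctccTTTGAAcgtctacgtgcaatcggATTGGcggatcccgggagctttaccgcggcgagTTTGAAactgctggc
Ccnb2, GRCm38.p6 chr9:70421555-70421804, minus strand: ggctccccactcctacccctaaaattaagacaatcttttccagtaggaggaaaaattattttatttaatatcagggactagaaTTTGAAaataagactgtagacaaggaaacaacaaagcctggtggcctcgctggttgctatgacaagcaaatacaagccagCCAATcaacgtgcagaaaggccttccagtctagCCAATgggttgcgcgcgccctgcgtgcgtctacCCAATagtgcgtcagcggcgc
Ccnf, GRCm38.p6 chr17:24251410-24251659, minus strand: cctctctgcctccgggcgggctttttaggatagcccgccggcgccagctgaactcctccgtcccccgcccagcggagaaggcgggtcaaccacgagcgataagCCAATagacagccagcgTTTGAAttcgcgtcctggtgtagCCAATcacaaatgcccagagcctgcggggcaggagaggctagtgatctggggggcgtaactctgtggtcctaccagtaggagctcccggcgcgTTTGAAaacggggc
Cdk16, GRCm38.p6 chrX:20687704-20687953, plus strand: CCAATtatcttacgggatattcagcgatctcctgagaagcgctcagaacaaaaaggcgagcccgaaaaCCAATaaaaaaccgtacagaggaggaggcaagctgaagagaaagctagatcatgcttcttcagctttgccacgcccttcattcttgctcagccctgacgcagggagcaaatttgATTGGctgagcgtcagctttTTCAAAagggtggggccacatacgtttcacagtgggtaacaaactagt

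In Cdk1 the TTTGAA nearest the start began at position -15 and the nearest CCAAT at -48, counted from the start of transcription. In Ccnf they began at -14 and -107. In Ccnb2 a TTTGAA began at -167 and another at 5, just past the printed stretch, and the nearest CCAAT began at -21. In Cdk16 the single TTTGAA lay on the opposite strand at -48. The windows of the 17 cell cycle members higher in E13.5-labelled cells (14 windows of 12 genes) held TTTGAA in 4 cases (28.6%: Ccnb2, Ccnf, Cdk1 and Cdkn3) and CCAAT in 9 (64.3%). Windows of members with other roles (29 windows of 28 genes) held them in 2 (6.9%) and 13 (44.8%). Over all 32851 windows the shares were 17.9% and 37.4%. Both words together occurred in 4 of the 14, 1 of the 29 and 6.95% of all windows. TTTGGCGC was found in 1 member window (Cdc25a) and TTTCCCGC in 2 (Cdk2 and Cdkn2a), against 0.514% and 1.07% of all windows.

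The 6 arrays had median signals between 97.5 and 111 units after scaling by the submitters to a common trimmed mean of 500 units. Spearman correlations over probe sets were 0.874 to 0.893 among the E10.5-labelled arrays, 0.938 to 0.945 among the E13.5-labelled arrays and 0.845 to 0.886 across groups. Actin, read at its 3' end over its 5' end as a measure of RNA degradation, gave ratios of 17.4, 19.4 and 26.2 in E10.5-labelled and 16.1, 14.97 and 12.9 in E13.5-labelled replicates 1 to 3. The same ratio for Gapdh overlapped between groups, with 10.6 to 13.2 against 9.47 to 12.1. Replicates 3 stood apart by sex-linked genes, in opposite directions. Xist read 166 units in E10.5-labelled replicate 3 against 8141 to 19797 in the other 5 arrays. The Y-linked Eif2s3y read 14.1 units in E13.5-labelled replicate 3 against 826 to 1772 in the others. E10.5-labelled replicate 3 thus read as male and E13.5-labelled replicate 3 as female. The remaining arrays read both genes high, so each held cells from embryos of both sexes. E10.5-labelled replicate 3 also held 4657 units of embryonic globin (Hbb-y), against 4.11 to 326 in the others. Markers of cycling cells (Mki67, Top2a, Pcna, Birc5 and Bub1) were higher in E13.5-labelled cells for 5 of 5 genes, with summed signals of 29221 to 30044 against 3254 to 4288 units. Markers of postmitotic neurons were higher in E10.5-labelled cells for 4 of 7 genes (Tubb3, Dcx, Map2 and Stmn2; 82010 to 87170 against 43024 to 48183 units over the list). Of the other 3, Snap25 read higher in every E10.5-labelled array, Syt1 overlapped and Rbfox3 read higher in every E13.5-labelled array (log2 difference -0.71, limma adjusted p = 0.0608). Markers of the rhombic lip and granule cell precursors, Atoh1 included, were higher in E13.5-labelled cells for 6 of 8 (30102 to 37133 against 68368 to 72665 units). The part of the marker differences in the results that follow was not tested.

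Cell cycle members were mostly higher in E13.5-labelled cells, and members with other roles showed no call. Log2 signals were compared with limma, and a gene, represented by its brightest single-gene probe set, was tested if that probe set lay above the array median in at least 3 of 6 arrays. A call is an adjusted p under 0.05 after Benjamini-Hochberg adjustment over all 23491 probe sets tested. Of the 50 members tested, 17 were higher in E13.5-labelled cells, 2 were higher in E10.5-labelled cells and 31 had no call. Among all 11071 genes tested, 13.9% were higher in E13.5-labelled cells, 16.2% in E10.5-labelled cells and 30.1% were called in either direction. All 19 calls fell among the 22 tested cell cycle members (86.4%), and none among the 28 with other roles. The median log2 difference, E10.5-labelled minus E13.5-labelled, was -1.65 for the cell cycle members, -0.05 for the others and -0.03 over all genes tested. Cdc25c and Cdkn3 passed the filter only through the E13.5-labelled arrays, so their difference was partly set by the filter. The signals are from bulk RNA, in which fewer cells of a type and less RNA per cell cannot be told apart.

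**Figure D1:**
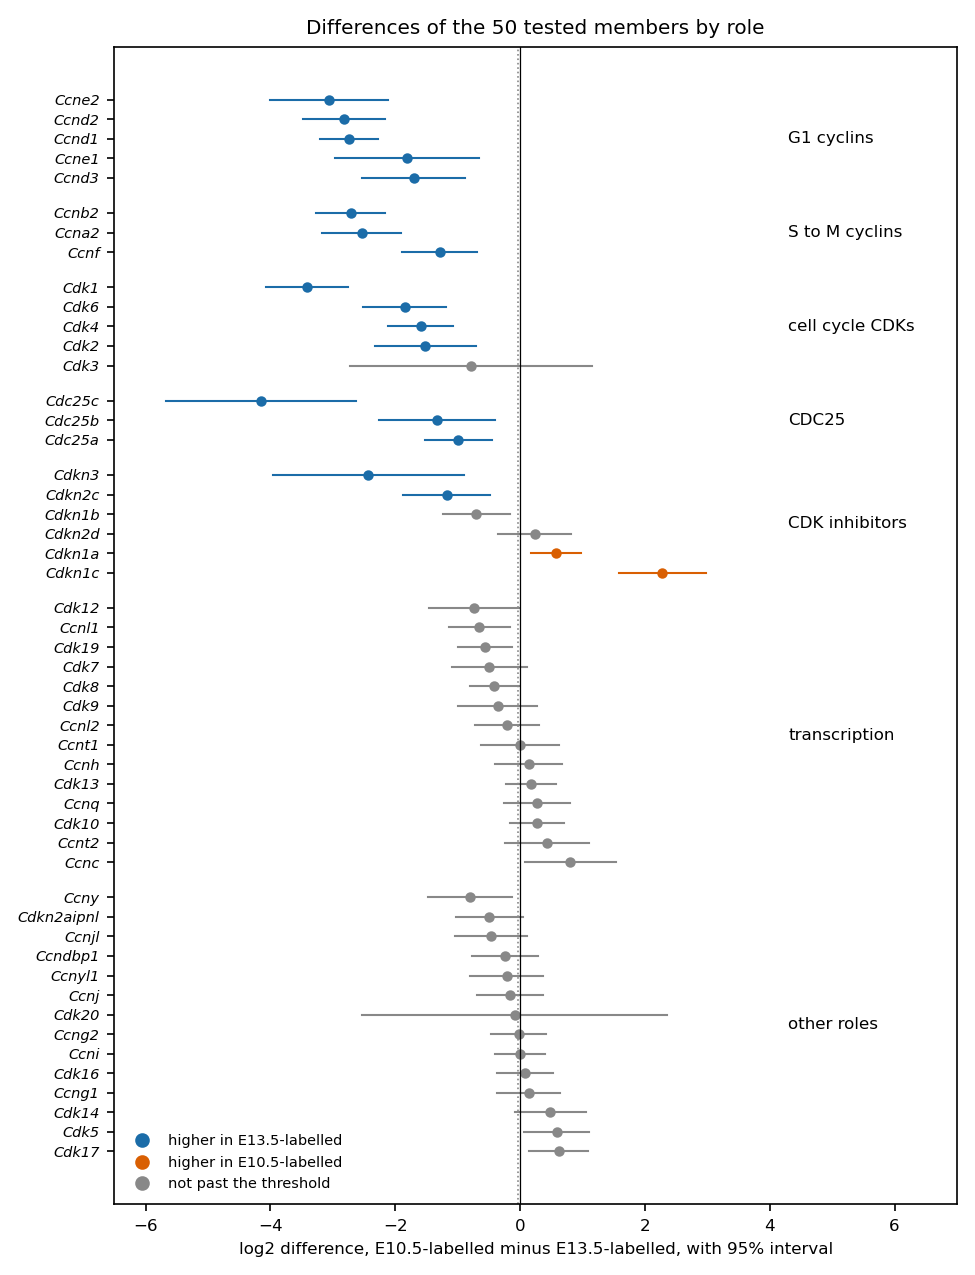
Log2 differences (E10.5-labelled minus E13.5-labelled, horizontal axis) of the 50 tested members, grouped by role, with limma's 95% intervals as lines. The dotted line is the median of all genes tested (-0.03). The G1 cyclins, S to M cyclins and CDC25 genes all lie to the left of 0, the inhibitors spread to both sides from -2.43 (Cdkn3) to 2.28 (Cdkn1c), and the members with other roles lie between -0.80 and 0.81.

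Arrays of the groups did not overlap in 20 of the 22 tested cell cycle members, 18 with all E13.5-labelled arrays above and 2 with all E10.5-labelled arrays above, and in 12 of the 28 members with other roles, 8 and 4 in these directions. The same held for 52.4% of all genes tested. The count of 17 depended on the arrays. It was 9 without E13.5-labelled replicate 1, 10 without replicate 2, 9 without replicate 3, and 17, 19 and 13 without E10.5-labelled replicate 1, 2 and 3. The 19 included Ccny, Cdk12 and Cdk19, which have other roles. The count of 2 was 1 without E10.5-labelled replicate 1 or 3 or any one E13.5-labelled array. It stayed at 2 without E10.5-labelled replicate 2, through Cdkn1c and Cdk20. Without both replicates 3 it was 8 higher in E13.5-labelled and 0 higher in E10.5-labelled cells. Shares of all genes were not computed with arrays left out, so whether these changes are particular to the members was not tested. With every probe set tested regardless of brightness, 9 cell cycle members were higher in E13.5-labelled and 2 in E10.5-labelled cells of 26 (42.3%), and 0 of the 33 others, against 8.12% of all 18193 genes. These 2 were Cdkn1c and Cdkn2a, the latter on signals of at most 24.9 units, while Cdkn1a lost its call.

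**Figure D2:**
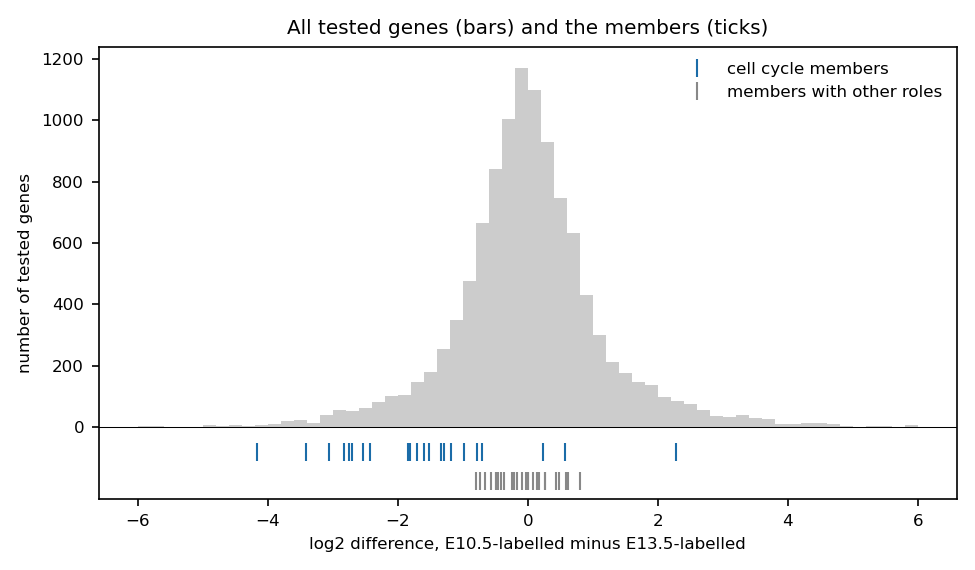
Number of tested genes (vertical axis) by log2 difference, E10.5-labelled minus E13.5-labelled, in bins of equal width; the 8 genes beyond the axis are counted in its end bars. Ticks below the bars mark the 22 cell cycle members (upper row, median -1.65) and the 28 members with other roles (lower row, median -0.05), which lie near the centre of the bars.

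All 5 G1 cyclins were higher in E13.5-labelled cells. Cyclin D2 (Ccnd2), a partner of Cdk4 and Cdk6, read 2929, 1599 and 2149 units in the E10.5-labelled arrays and 17215, 15464 and 13347 in the E13.5-labelled arrays. Every E13.5-labelled array lay far above every E10.5-labelled one, 7.07-fold higher on average (log2 difference -2.82, SE 0.27, limma adjusted p = 0.00194; folds here are ratios of geometric means). Cyclin D1 (Ccnd1), another D-type cyclin, known from dividing granule cell precursors, read 447, 403 and 542 units against 3382, 3014 and 2899, again without overlap (6.71-fold, log2 difference -2.75, SE 0.19, limma adjusted p = 0.00115). Cyclin D3 (Ccnd3) read 357, 209 and 148 units in E10.5-labelled and 710, 829 and 652 in E13.5-labelled arrays. The groups were apart here too, but the difference was smaller (3.26-fold, log2 difference -1.71, SE 0.34, limma adjusted p = 0.0162). Its adjusted p was 0.0591, 0.0628 and 0.0537 without E13.5-labelled replicate 1, 2 or 3.

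The E-type cyclins, which activate Cdk2 at the start of S phase, showed the same direction with unequal firmness. Cyclin E2 (Ccne2) read 113, 73.1 and 203 units in the E10.5-labelled arrays and 965, 1180 and 862 in the E13.5-labelled arrays. This was the largest difference among the G1 cyclins, with groups well apart (8.36-fold, log2 difference -3.06, SE 0.39, limma adjusted p = 0.0038). Cyclin E1 (Ccne1) read 580, 166 and 450 units against 1041, 1372 and 1323. E10.5-labelled replicate 2 was the lowest, and its group spread more than the other (3.52-fold, log2 difference -1.81, SE 0.48, limma adjusted p = 0.0372). Without E10.5-labelled replicate 3 the adjusted p of Ccne1 was 0.0558, and it was 0.0894, 0.113 and 0.117 without E13.5-labelled replicate 1, 2 or 3.

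Of the 5 cyclins of S phase to mitosis, the 3 tested were all higher in E13.5-labelled cells. Cyclin B2 (Ccnb2), a partner of Cdk1 in mitosis, read 735, 571 and 454 units in the E10.5-labelled arrays and 4025, 3773 and 3524 in the E13.5-labelled arrays. The groups were far apart (6.55-fold, log2 difference -2.71, SE 0.23, limma adjusted p = 0.00154). Cyclin A2 (Ccna2), which works with Cdk2 in S phase and with Cdk1 later, read 321, 432 and 245 units against 1924, 2155 and 1612 (5.82-fold, log2 difference -2.54, SE 0.26, limma adjusted p = 0.00229). Cyclin F (Ccnf), which is a substrate receptor of a ubiquitin ligase and not a CDK activator, read 199, 180 and 283 units against 569, 436 and 595. It did not overlap between groups but differed less (2.44-fold, log2 difference -1.29, SE 0.25, limma adjusted p = 0.0142), and its adjusted p was 0.0604 and 0.0649 without E13.5-labelled replicate 1 or 3. Cyclins A1 and B3 (Ccna1 and Ccnb3), known chiefly from germ cells, were too dim to be tested, with signals of at most 103 and 30.9 units.

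**Figure D3:**
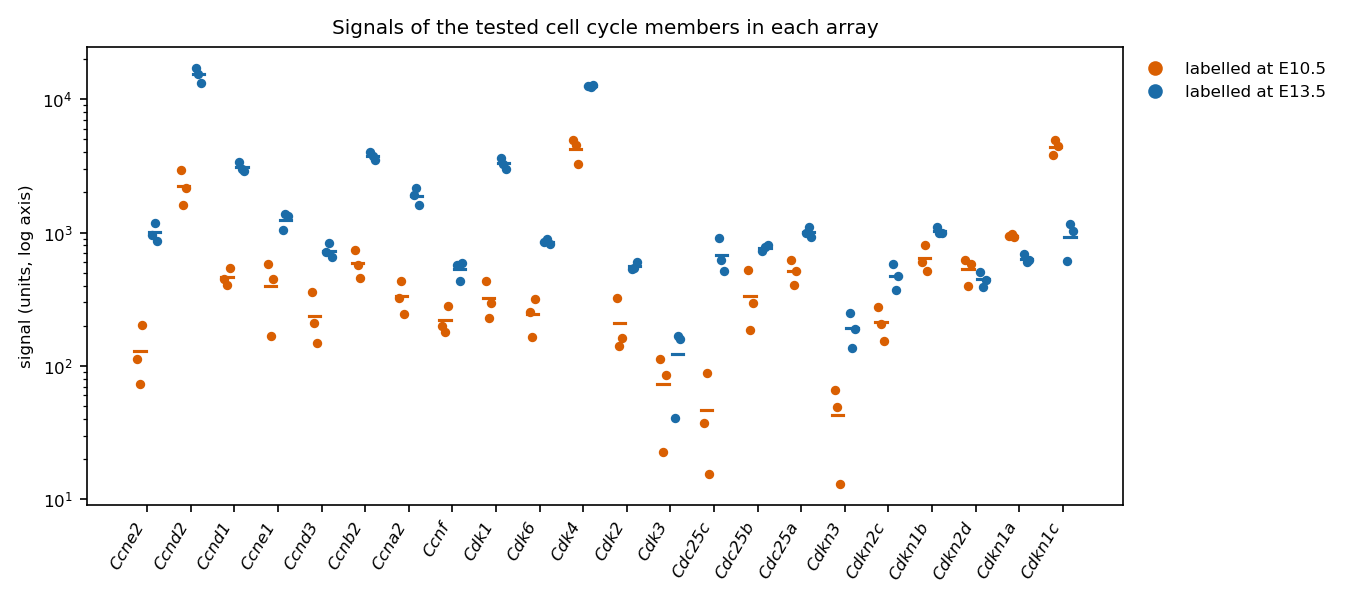
Signals in array units (vertical log axis) of the 22 tested cell cycle members, with 1 point per array and a bar at each group's mean of 3 arrays. Blue points (labelled at E13.5) lie above all orange points (labelled at E10.5) in 18 genes, below them in Cdkn1a and Cdkn1c, and among them in Cdk3 and Cdkn2d.

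Of the 5 cell cycle kinases, 4 were higher in E13.5-labelled cells. Cdk1, the kinase of mitosis, read 435, 230 and 297 units in the E10.5-labelled arrays and 3633, 3294 and 2985 in the E13.5-labelled arrays. The lowest E13.5-labelled array lay well above the highest E10.5-labelled one (10.6-fold, log2 difference -3.41, SE 0.27, limma adjusted p = 0.00139). Cdk4 read 4976, 4557 and 3254 units against 12682, 12404 and 12846. The E13.5-labelled arrays were nearly equal, and the groups were apart (3.01-fold, log2 difference -1.59, SE 0.22, limma adjusted p = 0.00463). Cdk6, the other partner of D-type cyclins, read 252, 165 and 320 units against 846, 896 and 817 (3.60-fold, log2 difference -1.85, SE 0.27, limma adjusted p = 0.00606). Leaving out any one array ended none of these 3 calls, and leaving out both replicates 3 ended that of Cdk4 (adjusted p = 0.0515).

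Cdk2, the kinase of the start of S phase, read 321, 140 and 163 units in E10.5-labelled and 530, 541 and 598 in E13.5-labelled arrays. The groups did not overlap, and E10.5-labelled replicate 1 stood above its group (2.86-fold, log2 difference -1.52, SE 0.33, limma adjusted p = 0.022). The adjusted p of Cdk2 was 0.0551 without E10.5-labelled replicate 3 and 0.0708, 0.071 and 0.0829 without E13.5-labelled replicate 1, 2 or 3. Cdk3 was dim, with 112, 22.5 and 85.3 units against 40.6, 168 and 159. Its groups overlapped, and its interval was wide (log2 difference -0.78, 95% interval -2.72 to 1.16, limma adjusted p = 0.511).

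The 3 CDC25 phosphatases were higher in E13.5-labelled cells. Cdc25c, which acts on Cdk1 at the entry into mitosis, read 37.6, 87.9 and 15.5 units in the E10.5-labelled arrays and 909, 625 and 513 in the E13.5-labelled arrays. All E10.5-labelled arrays lay below their medians, so the size of the difference (log2 -4.16, SE 0.63, limma adjusted p = 0.00642) depends on how low they were read. With signals raised to the array median it was -2.63. Cdc25a, needed for entry into S phase, read 623, 407 and 512 units against 987, 1105 and 928 (1.98-fold, log2 difference -0.99, SE 0.22, limma adjusted p = 0.0223). The groups did not overlap, yet the adjusted p was 0.0757, 0.0861 and 0.0712 without E13.5-labelled replicate 1, 2 or 3. Cdc25b, which acts at the G2 to M step, read 525, 185 and 294 units against 724, 783 and 801. E10.5-labelled replicate 1 came nearest to the other group (2.51-fold, log2 difference -1.33, SE 0.38, limma adjusted p = 0.0486). The call of Cdc25b was lost without any one array other than E10.5-labelled replicate 1, with an adjusted p of 0.064 and 0.0996 without E10.5-labelled replicate 2 or 3 and of 0.122, 0.13 and 0.141 without E13.5-labelled replicate 1, 2 or 3.

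The CDK inhibitors did not share a direction. Of the 6 tested of 8, 2 were higher in E10.5-labelled cells, 2 were higher in E13.5-labelled cells and 2 had no call. Cdkn1c (p57), a Cip/Kip inhibitor found in cells leaving the cycle, read 3845, 4916 and 4423 units in the E10.5-labelled arrays and 611, 1151 and 1035 in the E13.5-labelled arrays. Its E10.5-labelled arrays all lay far above the others (4.86-fold, log2 difference 2.28, SE 0.29, limma adjusted p = 0.00366). Only without both replicates 3, among the alternatives run, did its adjusted p rise above 0.05 (0.052). Cdkn1a (p21), the p53-induced inhibitor, read 946, 971 and 933 units against 695, 601 and 619. The groups were apart, but the difference was small (1.49-fold, log2 difference 0.58, SE 0.16, limma adjusted p = 0.0473). The adjusted p of Cdkn1a was 0.0755, 0.0723 and 0.0733 without E10.5-labelled replicate 1, 2 or 3 and 0.101, 0.159 and 0.163 without E13.5-labelled replicate 1, 2 or 3. Cdkn1b (p27), the third of the family, read 606, 811 and 513 units against 1095, 997 and 996. All its E13.5-labelled arrays were the higher ones, opposite to its 2 relatives, without passing the threshold (log2 difference -0.70, SE 0.22, limma adjusted p = 0.0632). Without E10.5-labelled replicate 2 its adjusted p was 0.0254. Cdkn1b also passed with signals raised to the array median (limma adjusted p = 0.0442) and with an intensity trend and robust moderation (0.0396). The same held with array weights (0.044) and with the mean over probe sets (0.0453), but under no other alternative run. Only 1 probe set of Cdkn1b was tested, so no probe sets were averaged for it and its difference stayed at -0.70.

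Among the INK4 inhibitors, which block Cdk4 and Cdk6, Cdkn2c (p18) read 276, 206 and 155 units in E10.5-labelled and 579, 369 and 474 in E13.5-labelled arrays. It was higher in E13.5-labelled cells without overlap (2.26-fold, log2 difference -1.18, SE 0.29, limma adjusted p = 0.0305). That call was lost without E10.5-labelled replicate 2 or 3 (adjusted p = 0.0587 and 0.061) and without E13.5-labelled replicate 1, 2 or 3 (0.105, 0.0527 and 0.102). Cdkn2d (p19) read 622, 395 and 578 units against 505, 392 and 442, with overlapping groups (log2 difference 0.23, 95% interval -0.35 to 0.82, limma adjusted p = 0.51). Cdkn2a, which encodes p16 and ARF, read 24.9, 12.6 and 22.8 units against 1.87, 2.03 and 2.16, all below the array medians. It was not tested, and with every probe set tested its limma adjusted p was 0.0149 on signals near the bottom of the scale. Cdkn2b (p15) was as dim and overlapped, with 80.3, 6.09 and 9.26 units against 11.8, 6.07 and 51.7.

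Cdkn3, a phosphatase that acts on the activating phosphate of CDKs and whose RNA is known to peak in dividing cells, read 65.5, 48.9 and 12.9 units in E10.5-labelled and 249, 136 and 190 in E13.5-labelled arrays. Its E10.5-labelled arrays all lay below their medians (log2 difference -2.43, SE 0.63, limma adjusted p = 0.0355). With signals raised to the array median the difference was -0.80, and the adjusted p was 0.117, 0.0756 and 0.108 without E13.5-labelled replicate 1, 2 or 3.

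None of the 14 tested members that act in CDK activation or transcription passed the threshold, and none of the other 14. At an unadjusted p under 0.05 there were 8 of these 28, of which 5 were higher in E13.5-labelled and 3 in E10.5-labelled cells, against 43.7% of all genes tested. Cdk7, the kinase that activates other CDKs and is part of the general factor TFIIH, read 915, 648 and 950 units in E10.5-labelled and 1460, 1082 and 998 in E13.5-labelled arrays. The E13.5-labelled arrays were higher by a small margin (log2 difference -0.49, 95% interval -1.10 to 0.11, limma adjusted p = 0.194). Its cyclin, Ccnh, had overlapping groups (log2 difference 0.14, 95% interval -0.40 to 0.68). Cdk9 and cyclins T1 and T2 (Ccnt1 and Ccnt2), the elongation kinase P-TEFb, all overlapped between groups, with log2 differences of -0.36, 0.00 and 0.43.

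The Mediator kinases Cdk8 and Cdk19 both read higher in every E13.5-labelled array, with log2 differences of -0.41 (95% interval -0.81 to -0.01) and -0.56 (-0.99 to -0.13) and limma adjusted p of 0.116 and 0.0636. Cyclin C (Ccnc), their partner, read the other way by its brightest probe set (692, 457 and 612 against 404, 227 and 396 units). The elongation kinases Cdk12 and Cdk13 had differences of -0.74 (limma adjusted p = 0.118) and 0.17 (0.47). Cyclin L1 (Ccnl1), a partner of the splicing-linked CDK11, came nearest to the threshold in this role: it read 2654, 2484 and 3233 units against 4605, 4836 and 3727, apart between groups (log2 difference -0.65, SE 0.20, limma adjusted p = 0.0598). It passed with centring on the array median (0.0484), with signals raised to that median (0.0439), with an intensity trend and robust moderation (0.0146) and with the mean over probe sets (0.0421). Its log2 difference was -0.71 with centring and stayed at -0.65 in the others. Ccnl1 has 1 probe set, so no probe sets were averaged for it. Without E10.5-labelled replicate 2, Ccny, Cdk12, Cdk19 and Cdk20 passed, with limma adjusted p of 0.0495, 0.029, 0.0444 and 0.048. Cdk20, a kinase tied to cilia, then read higher in E10.5-labelled cells (log2 difference 1.13), while with all arrays it read -0.09. Its signal in that replicate was 13.2 units, against 58.3 to 194 in the other arrays.

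Cdk5 and its relatives have roles outside division. Cdk5 read 572, 664 and 800 units in E10.5-labelled and 509, 386 and 459 in E13.5-labelled arrays. All E10.5-labelled arrays were higher, by less than the threshold required (log2 difference 0.58, SE 0.21, limma adjusted p = 0.0934). Cdk5 is switched on not by a cyclin but by p35 (Cdk5r1) or p39 (Cdk5r2). Cdk5r2, one of the 3 largest differences of the pathway list toward E10.5-labelled cells, read 387, 921 and 595 units against 131, 266 and 100 (3.93-fold, log2 difference 1.97, SE 0.47, limma adjusted p = 0.0275). Cdk5r1, named here after its values were seen, read 4087, 2121 and 4243 units against 1172, 1373 and 1148 (2.71-fold, log2 difference 1.44, SE 0.31, limma adjusted p = 0.0202). Both activators were thus higher in every E10.5-labelled array than in any E13.5-labelled one.

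**Figure D4:**
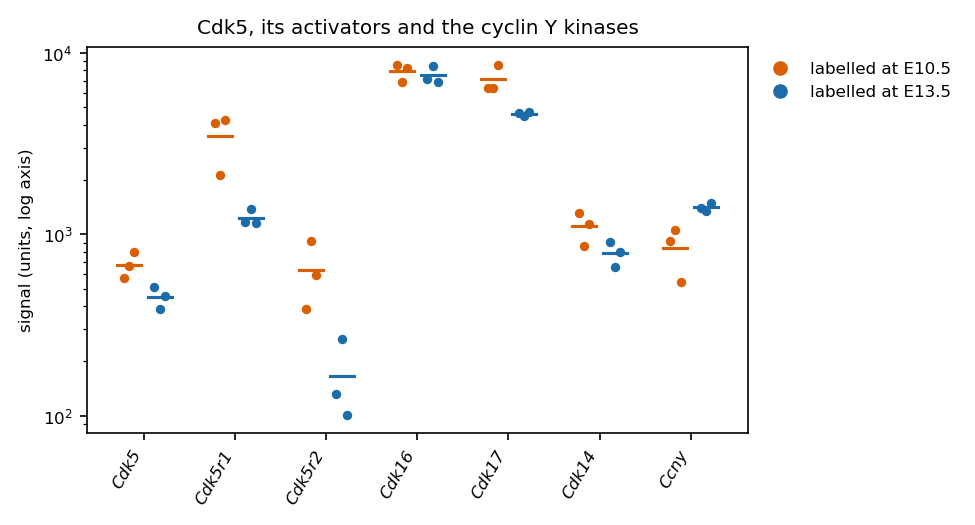
Signals in array units (vertical log axis) of Cdk5, its activators Cdk5r1 and Cdk5r2, the kinases Cdk16, Cdk17 and Cdk14 and cyclin Y (Ccny), with 1 point per array and a bar at each group's mean of 3 arrays. Orange points (labelled at E10.5) lie above all blue points (labelled at E13.5) in Cdk5, Cdk5r1, Cdk5r2 and Cdk17, below them in Ccny, and among them in Cdk16 and Cdk14.

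Of the kinases related to Cdk5, Cdk17 read 6390, 6403 and 8604 units in E10.5-labelled and 4648, 4455 and 4719 in E13.5-labelled arrays. These groups were apart, with limma adjusted p = 0.0626 (1.53-fold, log2 difference 0.62, SE 0.19). Cdk17 passed with signals raised to the array median and with an intensity trend and robust moderation (limma adjusted p = 0.0478 and 0.0116). Its other probe set read -0.18, with overlap. Cdk16, which is activated by cyclin Y, read 8504, 6900 and 8284 units against 7201, 8400 and 6872. Its groups overlapped closely, with a log2 difference of 0.08 (95% interval -0.38 to 0.53). Cyclin Y itself (Ccny) read 912, 1057 and 546 units against 1396, 1344 and 1486 (log2 difference -0.80, SE 0.28, limma adjusted p = 0.0837). Cyclins G1, G2 and I (Ccng1, Ccng2 and Ccni), atypical cyclins that are not periodic drivers of division, overlapped between groups by their brightest probe sets. Their log2 differences were 0.14, -0.02 and -0.01. Ccni read 11247, 11586 and 11562 units against 12092, 10489 and 12003. Each of these genes had a dimmer probe set with all E13.5-labelled arrays above (-0.66, -0.58 and -0.56), without passing (limma adjusted p = 0.0534, 0.129 and 0.126). A further probe set of Ccng1 and of Ccni overlapped (0.01 and -0.04). The remaining tested members were Cdk10, Ccnq and Ccnl2 among the transcription roles, with log2 differences of 0.27, 0.27 and -0.21, and Cdk14 (0.48), Cdkn2aipnl (-0.49), Ccnjl (-0.47), Ccndbp1 (-0.25), Ccnyl1 (-0.22) and Ccnj (-0.16). Their limma adjusted p lay between 0.156 (Cdkn2aipnl) and 0.623 (Ccnj), and their groups overlapped except in Cdkn2aipnl and Ccnjl, where all E13.5-labelled arrays were above. The members not tested, apart from those named above, were Ccnk, Ccno, Cdk18, Ccnb1ip1 and Cdkn2aip.

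Several members were read by more than 1 probe set. In the cell cycle roles 39 probe sets were tested, of which 29 were higher in E13.5-labelled and 2 in E10.5-labelled cells (79.5%). In the other roles 65 were tested and 1 passed (1.54%), against 12.5%, 13.4% and 25.9% of all 23491 probe sets for the E13.5-labelled direction, the E10.5-labelled direction and both. Of the 39 in the cell cycle roles, 5 passed the filter only through the E13.5-labelled arrays (2 of Ccnd2 and 1 each of Ccnf, Cdc25c and Cdkn3) and so had to differ. Without them the counts were 24 and 2 of 34. The 7 probe sets of Ccnd2, those 2 included, were higher in E13.5-labelled cells, with log2 differences from -4.59 to -2.82 (the 2 were at -4.59 and -4.09), as were all 3 of Cdk4 (-1.60 to -1.54) and both of Ccna2 (-3.11 and -2.54), Cdk6 (-1.85 and -1.56) and Ccnf (-1.87, admitted in this way, and -1.29). Of the 3 of Ccnd1, 2 passed. The other (-3.17) had 1 E10.5-labelled array at 20.6 units and a limma adjusted p of 0.0946. The second tested probe sets of Ccne1 (-1.60), Cdc25a (-0.60) and Cdkn1a (1.17) had the same sign as the first without passing (limma adjusted p = 0.0545, 0.317 and 0.0902), as had that of Cdc25c (-4.29, 0.0503).

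**Figure D5:**
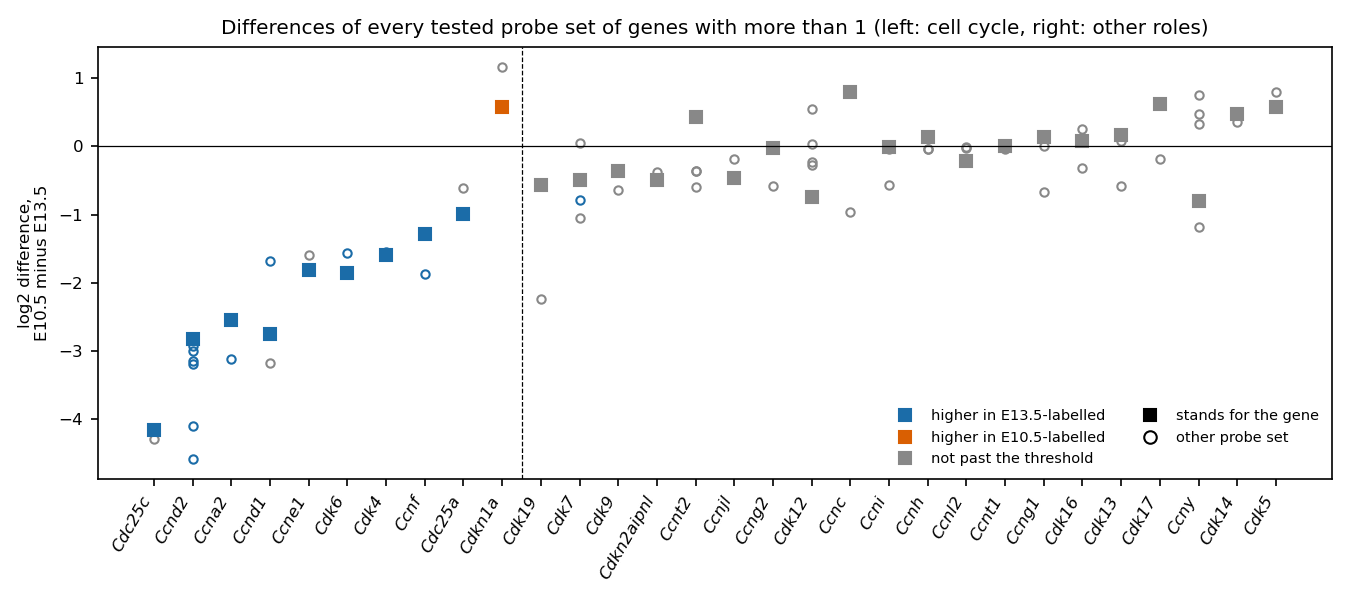
Log2 differences, E10.5-labelled minus E13.5-labelled (vertical axis), of all tested probe sets of the members with more than 1; squares are the probe sets that stand for their gene and circles the others. Left of the dashed line, probe sets of a cell cycle member lie on 1 side of 0. Right of it, those of Ccnc, Ccny, Cdk12, Cdk7, Ccnt2, Cdk17 and others lie on both sides.

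Members with other roles were less uniform. The 1 call was a probe set of Cdk7 (538, 360 and 473 against 821, 727 and 774 units, log2 difference -0.78, limma adjusted p = 0.041) that does not stand for its gene. Cyclin C had probe sets at 0.81 and -0.96 (limma adjusted p = 0.101 and 0.0551), each with groups that did not overlap, in opposite directions. The brightest probe set of Ccny read -0.80, while 3 others read 0.75, 0.47 and 0.34 with all E10.5-labelled arrays above, and a further one, read at 4.33 units in E10.5-labelled replicate 2, gave -1.18. The probe sets of Cdk12 ran from -0.74 to 0.55. Those of Ccnt2 ran from -0.59 to 0.43 and those of Cdk13 from -0.58 to 0.17, while those of Cdk17 read 0.62 and -0.18. The sign of the difference for these genes and for Ccnc, Ccny and Cdk12, among others, therefore depended on the probe set. No probe set of the genes named in that sentence or the one before passed the threshold. Among them, only Ccnc, Ccny and Cdk13 had probe sets with groups apart in opposite directions. What the probe sets of these genes have in sequence was not examined.

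Genes that regulate or answer to these kinases were taken from a list of 62, of which 56 were tested. Of them 24 were higher in E13.5-labelled cells, 6 were higher in E10.5-labelled cells and 26 had no call, with a median log2 difference of -0.89. These shares were 42.9% and 10.7%, against 13.9% and 16.2% of all genes tested. Cdk5rap2, Cdkl2 and Cdkl3 passed the filter only through the group in which they were high and so had to differ; without them the counts were 23 and 4 of 53. Toward E13.5-labelled cells the largest differences were in Cdk5rap2, Fbxo5 and E2f8. Cdk5rap2, a centrosome protein, read 20.8, 2.32 and 4.05 units against 195, 132 and 205 (log2 difference -4.91, SE 0.79, limma adjusted p = 0.00779), on E10.5-labelled signals below every array median, so the filter admitted it for that direction. Fbxo5 (Emi1), an inhibitor of the anaphase-promoting complex, read 154, 445 and 228 units against 2210, 2542 and 1765 (8.60-fold, log2 difference -3.10, SE 0.41, limma adjusted p = 0.00419). E2f8, an atypical repressor of the E2F family, read 62.3, 145 and 69.5 units against 642, 709 and 630 (7.70-fold, log2 difference -2.94, SE 0.35, limma adjusted p = 0.00306). All 3 were without overlap.

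Toward E10.5-labelled cells the list's largest differences, beside Cdk5r2, were in the CDK-like kinases Cdkl2 and Cdkl3, which resemble CDKs in sequence. Cdkl2 read 346, 531 and 924 units in E10.5-labelled and 71.2, 55.7 and 77.0 in E13.5-labelled arrays (8.22-fold, log2 difference 3.04, SE 0.38, limma adjusted p = 0.00363). Cdkl3 read 258, 121 and 206 units against 39.6, 65.8 and 59.8 (3.46-fold, log2 difference 1.79, SE 0.35, limma adjusted p = 0.015). In both genes the E13.5-labelled arrays all lay below their medians, so the filter admitted them for that direction and the folds depend on how low those arrays were read. The other 3 of the 6 were Cdk5r1, Hexim2, an inhibitor of P-TEFb, and the transcription factor Myc, with log2 differences of 1.44, 1.46 and 1.45. They are named after their values were seen.

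Markers of other cell types that the sort could hold also differed in part. Oligodendrocyte lineage markers were higher in E10.5-labelled cells for 2 of 4 genes (Olig1 and Olig2) and in E13.5-labelled cells for 1 (Pdgfra), with summed signals of 2547 to 3083 against 847 to 1103 units. Olig1 made up most of that sum in E10.5-labelled cells, with means of 2149 against 164 units. GABAergic markers were higher in E10.5-labelled cells for 2 of the 4 tested (Gad1 and Gad2; 916 to 1793 against 678 to 998 units over the list). Radial glial markers were higher in E13.5-labelled cells for 2 of the 7 tested (Slc1a3 and Vim) and in E10.5-labelled cells for 1 (Fabp7), with summed signals of 21068 to 23814 against 29593 to 36163 units. Vim made up most of this sum in both groups, with means of 12235 against 25962 units. Of 2 tested microglial markers 1 (Csf1r) was higher in E10.5-labelled cells (480 to 1193 against 248 to 410 units). Endothelial, red blood cell and pericyte or meningeal markers gave no call. Their summed signals were 408 to 2348 against 262 to 1358, 91.0 to 4724 against 256 to 410, and 700 to 2598 against 317 to 1061 units, and Pecam1, Cdh5, Aif1, C1qa, Hba-a1, Hba-x, Alas2 and Dcn lay below the median of every array. The part of these cells in the members' differences was not tested.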

How the data were processed

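The deposited table gives linear signal intensities computed with MAS5, a tool named in the submitters' processing notes. Its version is not given in the sources used here, nor are detection calls. The values show that arrays were scaled to a mean of 500 units after trimming 2% at each end. This removes any difference in total RNA per cell, and MAS5's subtraction of mismatch probes makes low signals vary strongly on the log2 scale.

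Gene symbols came from the platform annotation. Of 45101 probe sets, 34958 name 1 symbol, 932 several and 9211 none; the 64 Affymetrix controls were left out. Each gene is read by the brightest (mean log2 signal) of the probe sets that name it alone, and probe sets above their array's median in at least 3 of 6 arrays were tested. Groups were compared on the log2 scale in limma 3.58.1 (lmFit, then eBayes, two-sided, Benjamini-Hochberg over 23491 probe sets, threshold 0.05) in R 4.3.3, with code tested on simulated data. Each group has 3 arrays. Intervals are 95% and cover the spread between arrays only.

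The members, roles, pathway list and marker lists were chosen with earlier results of these data known. Values in every array are given for up to 4 called genes per role and direction, the D-type cyclins, Cdk1, Cdk2, Cdk4, Cdk5, Cdk6 and the Cdkn1 and Cdkn2 genes, with other members named where described, and for up to 3 pathway genes per direction. Alternatives were another normalization or centring, an offset or floor, other filters, moderation, weights, probe set choices and thresholds, a replicate block and left-out arrays.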

Additional observations from a re-analysis of the deposited data

How the results depend on the processing

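The 17 members higher in E13.5-labelled cells, all of the cell cycle, became 9 with no filter, 9 at an adjusted p under 0.01, 8 without both replicates 3 and 9 to 19 with 1 array left out (9 to 17 for the cell cycle members). The 2 higher in E10.5-labelled cells became 1 with centring on the array median, array weights, a threshold of 0.01 or a required 2-fold difference, 0 without both replicates 3, and 1 to 2 with 1 array left out. Against 0 calls among members with other roles, there was 1 with centring, 2 with signals raised to the array median, 5 with an intensity trend and robust moderation, 1 with the mean over probe sets, and 0 to 4 with 1 array left out. Cdk20 (-0.09) reversed, with values of -0.80 to 1.13 with 1 array left out, the latter without E10.5-labelled replicate 2. Same-numbered replicates did not deviate together over the tested probe sets (correlations -0.03, -0.07 and -0.01). The labels do not say whether they shared a litter or a day, and this was not tested. With the replicate block there were 11 members higher in E13.5-labelled and 1 higher in E10.5-labelled cells, the 11 all in the cell cycle. Where not a matter of fewer arrays, more probe sets or a stricter threshold by construction, the cause was not tested. Apart from the fit with no filter, shares of all genes were not computed under the alternatives.

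Of the 19 called members, 8 kept their call under every alternative run: Ccna2, Ccnb2, Ccnd1, Ccnd2, Ccne2, Cdc25c, Cdk1 and Cdk6. Over all 50 members and alternatives, 853 of 945 values stayed on their side of the threshold, 74 lost a call, 17 gained one and 1 reversed. The 945 include the values of the 31 members with no call. All 74 losses fell on the 19 called members, 11 of which lost their call at least once. Among the 853, 25 values of 11 uncalled genes changed sign. The median log2 difference of all genes was -0.03 with the scaling as deposited, -0.03 after quantile normalization and -0.08 after centring. Without detection calls, differences of genes near or below the array median, Cdc25c, Cdkn3 and Cdk3 among them, are least precise.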
